A study of Mus musculus with 4 samples.

Results

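The 118 genes described here belong to 15 families of developmental transcription factors (Sox, Pax, Tbx, Lhx, Nkx, the sine oculis homeobox genes, Dlx, Irx, Pitx, Otx, Hand, Neurog, Hoxc, Hoxd and the GATA factors Gata4, Gata5 and Gata6). They were taken by gene symbol from the array annotation, with the B-cell factor Pax5 left out, and are 118 of 24287 genes with a symbol, measured by 156 of 55677 probes. The symbols also took 7 non-coding antisense or overlapping transcripts (Dlx6as, Dlx6os1, Dlx1as, Sox2ot, Otx2os1, Six3os1 and Pax6os1). Each gene is represented by its brightest probe, the probe with the highest mean over the arrays. RNA came from LSK cells, the lineage-negative, Sca-1-positive and c-Kit-positive marrow cells among which blood stem and progenitor cells are found, of C57Bl/6J mice. There were 2 arrays of cells labelled EZH1 knockout and 2 arrays of control cells, each array read in 1 colour. The sources used here give neither how Ezh1 was inactivated nor the genotype of the controls, the age of the mice or any pooling of animals. No label says that the samples came from separate mice, so a p-value reflects the spread of these 4 samples, which may be technical.

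Polycomb repressive complex 2 methylates histone H3 at lysine 27 through Ezh1 or Ezh2, and polycomb repressive complex 1 binds the mark and compacts or silences the marked genes. In most cell types the genes so marked include the regulators of other lineages: homeobox, T-box, SRY-box and paired-box genes that direct limb, nerve, heart, kidney or muscle development. In blood cells a few members of these families are normally used, such as Sox4 in progenitors and Tbx21 in T and NK cells.

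The labelled cell type was checked by its markers. Of 12 listed stem and progenitor markers 11 were detected on every array with a mean above the array median, among them the c-Kit gene Kit, and Slamf1 was dim and detected on 3 arrays. The brightest of 4 Ezh1 probes read 2069 and 3730 in knockout cells, against 2658 and 2620 in control cells. After scaling, Ezh1 was not lower in the knockout cells (log2 difference 0.27, 95% interval -0.47 to 1.01, adjusted p = 0.787), and since the deleted part of the gene and the position of the probe are not known here, this checks nothing about the labels. Markers of other blood cells differed in level: 15 of 16 neutrophil markers and 9 of 10 B-lineage markers were above both controls in both knockout samples (16.5% of all genes were), with none past the threshold. The median log2 difference was 2.11 over the neutrophil markers and 1.53 over the B-lineage markers, against 0.09 over all genes. The 16 neutrophil markers, summed as intensity over the array's 75th percentile, gave 268 to 334 in knockout and 267 to 279 in control samples. The B-lineage markers gave 8.34 to 9.85 and 5.30 to 5.59. Bright genes weigh most in such sums. Of the 12 stem and progenitor markers 2 had a higher and 10 a lower mean in knockout cells, with a median log2 difference of -0.19. Over all genes above the array median it was -0.07. Of 11 marrow stromal and bone markers 4 were above the array median, with a sum of 2.65 to 3.25 in knockout and 2.55 to 2.57 in control samples. Their part in the differences below was not tested. A probe is called detected on an array when its intensity is above the array's 20th percentile, which lay between 12.4 and 87.3. The dimmest probes of the arrays read 4.93 to 9.47, and the 75th percentile used for scaling lay between 1095 and 1690.

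Most of these developmental genes gave little or no signal in LSK cells. Detection failed on all 4 arrays for 36 genes (30.5%, against 10.9% of all genes), and 48 were detected on every array (40.7%, against 72.2% of all genes). Another 17 genes were detected on 1 array, 14 on 2 and 3 on 3. Only 23 genes had a mean above the array median (19.5%, against 54.8% of all genes), and all 23 were detected on every array. The neural and stem cell factor Sox2 read 5.32 and 6.41 in knockout cells, against 8.11 and 10.7 in control cells, below the detection limit of each array. Brightness depends on the probe as well as the transcript, so signals here are set against the array's own median and limit, not gene against gene. In a bulk sample fewer cells that express a gene and less RNA per cell cannot be told apart.

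**Figure D1:**
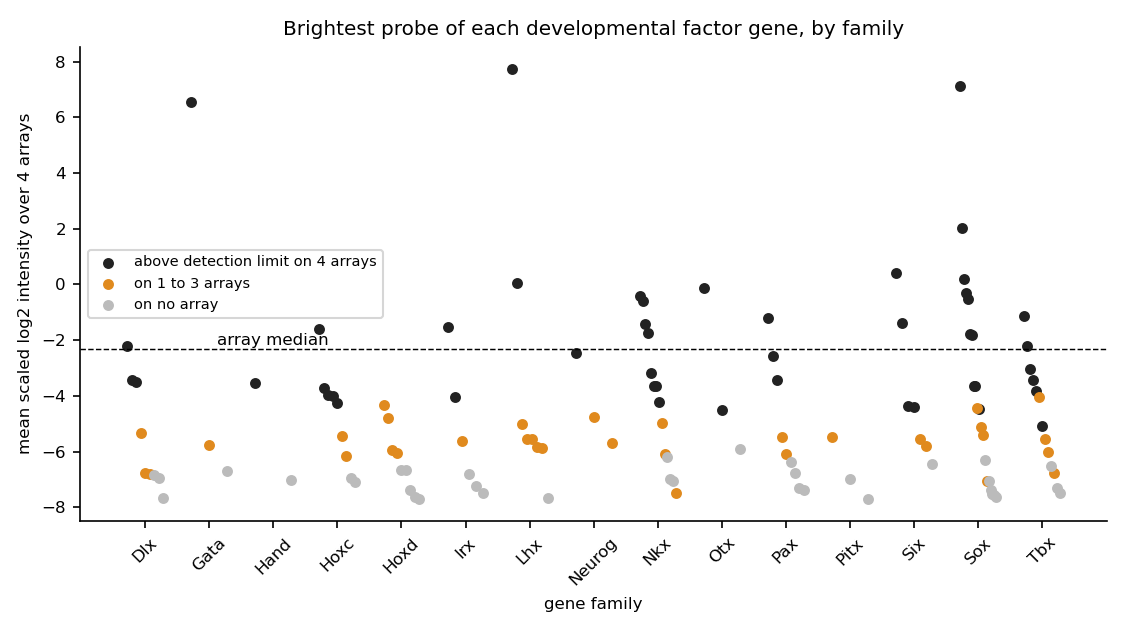
Each point is the brightest probe of 1 gene, grouped by family on the x axis, with the mean over the 4 arrays of log2 intensity minus the array's 75th percentile on the y axis. Black points were detected on 4 arrays, orange on 1 to 3 and grey on none. The 23 genes above the dashed line (the mean of the array medians) are spread over 11 families.

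The Hox genes, which pattern the body axis and in part act in blood, differed by cluster. None of the 9 Hoxd genes was above the array median or detected on every array, and 5 were detected on none. Of the 9 Hoxc genes Hoxc4 alone was above, and 5 were detected on every array (Hoxc4, Hoxc5, Hoxc6, Hoxc10 and Hoxc12). For comparison, 8 of 11 Hoxa genes and 3 of 10 Hoxb genes were above the median, among them Hoxa9 and Hoxb4, which are known for roles in blood progenitors. Hoxc4 read 348 and 1268 in knockout cells, against 200 and 595 in control cells. Its groups overlapped, with a log2 difference of 1.15 (95% interval -1.08 to 3.38, adjusted p = 0.780). The value rests on single arrays: it was 0.33 when control replicate 1 was left out, 0.53 when Ezh1 knockout replicate 2 was, 1.96 when control replicate 2 was and 1.77 when Ezh1 knockout replicate 1 was.

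All 9 Hoxc genes had a higher mean on the knockout arrays (median log2 difference 0.53), but the groups overlapped for each of them. Over all genes below the median, as most Hoxc genes were, 71% had a higher mean. The Hoxc count was 5 of 9 after quantile normalization, 6 with cyclic loess, 3 when Ezh1 knockout replicate 2 was left out and 4 when control replicate 1 was. It was 9 with median centring and without control replicate 2, and 8 with an offset of 50 and without Ezh1 knockout replicate 1. Of the Hoxd genes 5 were higher and 4 lower. Hoxd9 shows how far arrays of 1 group lay apart, with 13.2 and 326 in knockout cells, against 7.81 and 806 in control cells.

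Among the other families the Sox genes held the most members above the median, 7 of 20, followed by the Nkx genes with 4 of 14. The T-box genes had 2 of 13, the LIM-homeobox genes 2 of 8 and the sine oculis homeobox genes 2 of 7. The Dlx, Irx, Otx and Pax families and the 3 GATA factors had 1 each (Dlx6as, Irx4, Otx2, Pax2 and Gata5), and the Hand, Neurog and Pitx families had none. Means were higher in knockout cells for 10 of the 20 Sox genes, 11 of the 14 Nkx genes and 10 of the 13 T-box genes. Over all genes below the median, as most of these were, 71% had a higher mean. The 3 counts were 9, 6 and 7 after quantile normalization, and 8, 7 and 8 with cyclic loess. Of the 7 non-coding transcripts 2 were detected on every array, Dlx6as and Otx2os1.

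The brightest probes of Lhx6, Sox5 and Gata5 were among the brightest of the whole array. Lhx6, a LIM-homeobox factor of cortical interneurons, read 258739 and 296419 in knockout cells, against 364653 and 352376 in control cells, between the 20th and the 41st place of all 55677 probes. Sox5, which acts in cartilage and nerve cells, read 153449 and 219362 in knockout cells, against 214269 and 239518 in control cells. The groups overlapped for both genes. Gata5, a factor of heart and gut endoderm, has 1 probe, which read 134451 and 186276 in knockout cells, against 131016 and 111065 in control cells. After scaling, both knockout arrays were above both controls for Gata5, by 0.59 on the log2 scale (95% interval -0.15 to 1.33, adjusted p = 0.780).

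Other probes of the same genes did not carry that signal. The 2 other Lhx6 probes read 5.19 to 12.7 on the 4 arrays and were detected on none. The second Sox5 probe read between 401 and 1199, and the third was detected on 1 array. The second probes of Six3 and Nkx6-3 were detected on no array, and that of Lhx1 on 1. Among the 12 members above the median with several probes, 10 had no other probe above it, and Sox4 and Sox5 had. Over all genes, the share with a second probe above the median was 68%. For another 11 members above the median the array has 1 probe. Signal above the median therefore rests on 1 probe for 21 of the 23 genes. Probe sequences and transcript positions were not used here, and why probes of 1 gene differ was not tested.

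**Figure D2:**
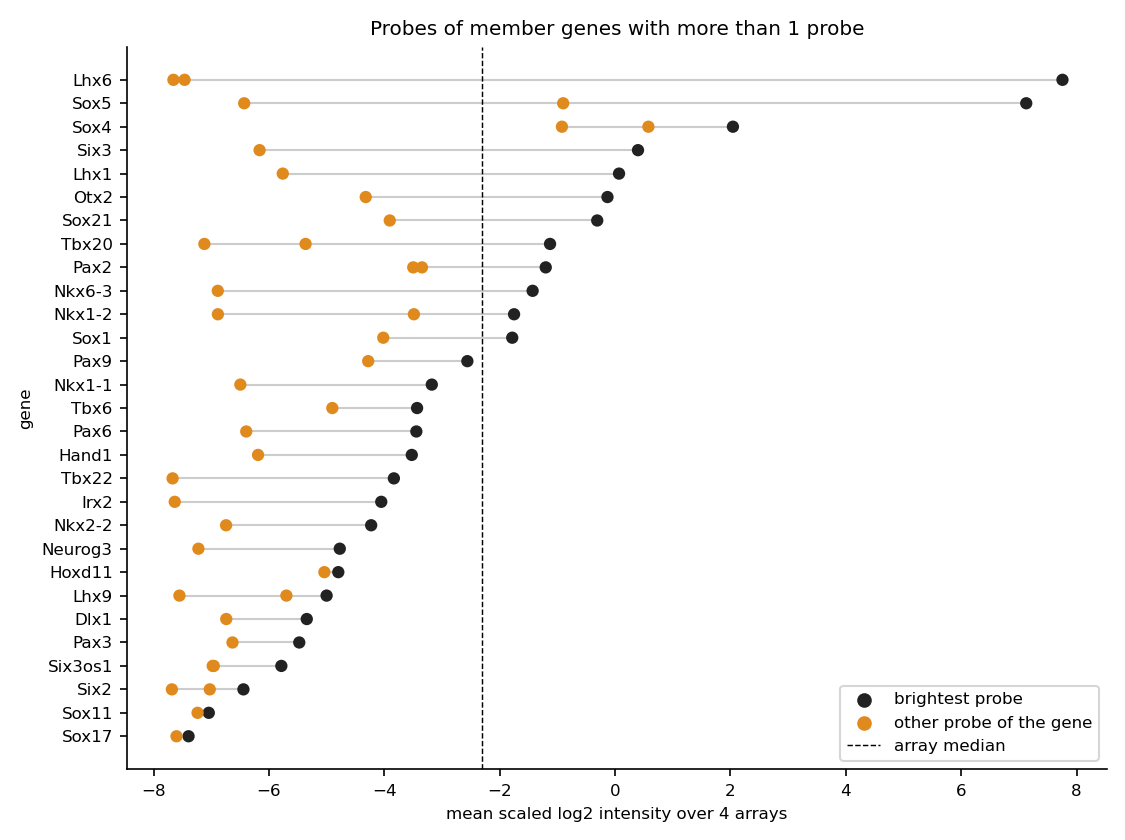
Each row is 1 of the 29 member genes with more than 1 probe, and each point is 1 probe at its mean scaled log2 intensity over the 4 arrays (x axis). Black points are the brightest probe and orange points the others, and the dashed line is the mean of the array medians. Sox4 alone has every probe above the line, and the orange Lhx6 probes, detected on no array, show no measured level.

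For Sox4, 3 of 3 probes had a signal above the array median. Sox4, Sox11 and Sox12 form the C group of the SRY-box family, and Sox4 is needed for early B-cell development. The brightest Sox4 probe read 4732 and 5573 in knockout cells, against 8432 and 5858 in control cells. The scaled groups overlapped, with a log2 difference of -0.25 (95% interval -1.19 to 0.69, adjusted p = 0.814), and the other 2 probes gave -0.37 and -0.25. Without control replicate 1 it was -0.0194 and without Ezh1 knockout replicate 2 -0.0579, while leaving out either of the other arrays gave -0.45 to -0.49. Sox12 read 807 and 1496 in knockout cells, against 800 and 1056 in control cells. After scaling, both knockout arrays were higher for Sox12, by 0.46 on the log2 scale (-0.43 to 1.35, adjusted p = 0.780), and by 0.23 to 0.69 with an array left out. Sox11, which acts in neurons, was not detected, with 5.13 and 33.2 in knockout cells, against 7.97 and 11.0 in control cells. Of the 3 relatives, Sox4 and Sox12 were above the median on every array, and Sox11 was not detected on any.

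The promoter windows of these 3 relatives are shown because genes marked by polycomb are known to have promoters rich in CpG, and the 3 genes differ in signal. Each window runs from 250 bases before to 50 bases after the gene start in RefSeq (build GRCm38.p6), on the minus strand in all 3 cases, with each CG in capitals. They lie at chr13:28953650-28953949 (Sox4), chr12:27342669-27342968 (Sox11) and chr2:152397997-152398296 (Sox12).
Sox4: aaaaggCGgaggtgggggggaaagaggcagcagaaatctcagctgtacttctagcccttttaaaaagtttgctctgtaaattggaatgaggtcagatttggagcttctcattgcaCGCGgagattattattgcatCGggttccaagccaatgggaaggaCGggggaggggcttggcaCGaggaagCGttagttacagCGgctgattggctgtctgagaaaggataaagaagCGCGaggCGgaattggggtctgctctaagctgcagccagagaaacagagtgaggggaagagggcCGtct
Sox11: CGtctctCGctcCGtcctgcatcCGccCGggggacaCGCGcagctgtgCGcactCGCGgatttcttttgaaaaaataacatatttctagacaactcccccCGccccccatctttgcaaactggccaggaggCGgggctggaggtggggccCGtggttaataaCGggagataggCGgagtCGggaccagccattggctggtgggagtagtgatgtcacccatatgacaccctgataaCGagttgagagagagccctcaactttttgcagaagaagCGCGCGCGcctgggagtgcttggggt
Sox12: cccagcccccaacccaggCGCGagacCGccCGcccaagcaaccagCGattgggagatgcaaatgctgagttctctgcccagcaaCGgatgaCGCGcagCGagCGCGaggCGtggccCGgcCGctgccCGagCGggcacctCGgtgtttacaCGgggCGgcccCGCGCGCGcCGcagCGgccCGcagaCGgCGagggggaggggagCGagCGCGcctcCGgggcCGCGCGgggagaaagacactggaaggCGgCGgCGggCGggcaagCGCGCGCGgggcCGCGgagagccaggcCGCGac
The letters CG, which read the same on both strands, occur 12 times in the Sox4 window, 21 times in that of Sox11 and 47 times in that of Sox12. At least 1 CG is found in 94.2% of 27025 RefSeq windows of that length, and the median is 7. At least as many as in Sox4 are found in 40.1% of the windows, as in Sox11 in 25% and as in Sox12 in 1.41%. Over genes of this array with such a window the median CG count is 14, and over those above the array median 20. The window of the undetected Sox11 lies between the other 2 in this count.

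Of the other Sox genes with a role in blood or vessels, Sox6, Sox13 and Sox7 were detected on every array. Sox6, a repressor of embryonic globin genes in red cell precursors, read 1544 and 848 in knockout cells, against 2152 and 2755 in control cells. Its groups overlapped after scaling, with a log2 difference of -0.89 (-2.63 to 0.86, adjusted p = 0.780), and without Ezh1 knockout replicate 2 it was -0.14. The 6 erythroid markers, summed as linear intensity over the array's 75th percentile, gave 79.2 to 103 in knockout and 79.0 to 127 in control samples, and their part in the Sox6 value was not tested. Sox13, known from gamma-delta T cells, read 387 and 577 in knockout cells, against 549 and 240 in control cells, with control replicate 2 apart from the other arrays.

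The SoxF factors Sox7, Sox17 and Sox18 act in endothelium, and Sox17 also in fetal blood stem cells. Sox7 was below the array median and read 126 and 166 in knockout cells, against 105 and 85.4 in control cells. Both knockout arrays were above both controls, by 0.81 on the log2 scale (0.03 to 1.59), with an unadjusted p of 0.0455 and an adjusted p of 0.780. Sox17 was not detected on any array, and Sox18 was detected on 2. Of 8 endothelial markers 7 were above the array median, and Cdh5, which marks endothelial junctions, was not detected on any array. Their sum was 10.83 to 12.04 in knockout and 12.94 to 15.29 in control samples. The part of endothelial cells in the Sox7 value was not tested.

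Tbx21 (T-bet), the T-box factor of T helper 1 and NK cells, had the largest log2 difference among the members above the median. It read 304 and 660 in knockout cells, against 199 and 253 in control cells, with both scaled knockout arrays above both controls. The log2 difference was 1.20 (2.29-fold; 95% interval 0.24 to 2.16), the unadjusted p was 0.0262 and the adjusted p 0.780. It ranged from 0.98 to 1.11 under the other scalings. Of 8 T and NK cell markers, each detected on at least 1 array, 7 had a higher mean in knockout cells, and their sum was 4.64 to 4.67 in knockout and 2.53 to 3.19 in control samples. Il2rb, a receptor chain of T and NK cells, read 1616 and 1790 in knockout cells and 672 and 581 in controls (log2 difference 1.65, 0.77 to 2.52, adjusted p = 0.780), while the NK receptor gene Ncr1 overlapped between groups. The part of such cells in the Tbx21 value was not tested.

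The remaining members above the median are regulators of organs outside the blood. Six3 and Otx2 (forebrain and eye), Lhx1 (kidney and head), Sox21 and Sox1 (neural progenitors) and Nkx3-2 (axial skeleton) had mean scaled log2 intensities between -1.78 and 0.40. Tbx20 and Irx4 (heart), Pax2 (kidney), Six5, Nkx2-3 (spleen and gut), Nkx6-3 (stomach), Nkx1-2 and the non-coding Dlx6as lay between -2.21 and -0.59. Six3 read 1345 and 2914 in knockout cells, against 1427 and 2432 in control cells. Its groups overlapped, and in each group the array numbered 2 was the brighter, as after scaling for 14 of the 23 genes among the knockout arrays and 19 among the controls.

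For several of these genes the arrays of 1 group lay as far apart as the groups or further. Lhx1 read 1154 and 2654 in knockout cells, against 1024 and 1743 in control cells, and Otx2 938 and 1885 against 1049 and 1690. Nkx3-2 read 580 and 2824 in knockout cells, against 542 and 1556 in control cells, and Irx4 361 and 887 against 303 and 689. Each of these 4 genes overlapped between groups. Sox21 read 859 and 1436 in knockout cells, against 1114 and 1394 in control cells, and Tbx20 419 and 937 against 618 and 818. Six5 read 457 to 614, Nkx1-2 251 to 635 and Dlx6as 157 to 713 over the 4 arrays, all with overlapping groups. Sox1 read 421 and 517 in knockout cells, against 396 and 373 in control cells, and its scaled groups did not overlap (log2 difference 0.48, -0.30 to 1.26, adjusted p = 0.780). Nkx2-3, which is needed for the spleen, read 699 and 1050 in knockout cells, against 1114 and 1073 in control cells, and was the one member above the median with both scaled knockout arrays below both controls (-0.15, -0.85 to 0.55, adjusted p = 0.841).

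Of the 23 members above the median 16 had a higher mean on the knockout arrays and 7 a lower one, with a median log2 difference of 0.46. Over the 13320 genes above the median 43% were higher, with a median of -0.07. The members were dimmer than these genes, with a median scaled log2 intensity of -1.367 to -0.535 on the 4 arrays, against 0.273 to 0.448. The shares here are not matched for signal, and of all genes below the median 71% were higher. Centring arrays on their medians gave 13 members higher and 10 lower. Both knockout arrays were above both controls for 6 members (26.1%, against 16.3% of genes above the median): Gata5, Sox12, Pax2, Nkx6-3, Sox1 and Tbx21. Both were below for Nkx2-3 alone (4.35%, against 26.1%), by 0.15 on the log2 scale. The median moved with the arrays used, and was -0.06 without control replicate 1 and 0.10 without Ezh1 knockout replicate 2. Without control replicate 2 it was 0.50, and without Ezh1 knockout replicate 1 it was 0.51. No member passed the threshold over all probes. In limma 0 of 43759 probes tested (0%) had an adjusted p under 0.05, and 5.74% had an unadjusted p under 0.05.

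**Figure D3:**
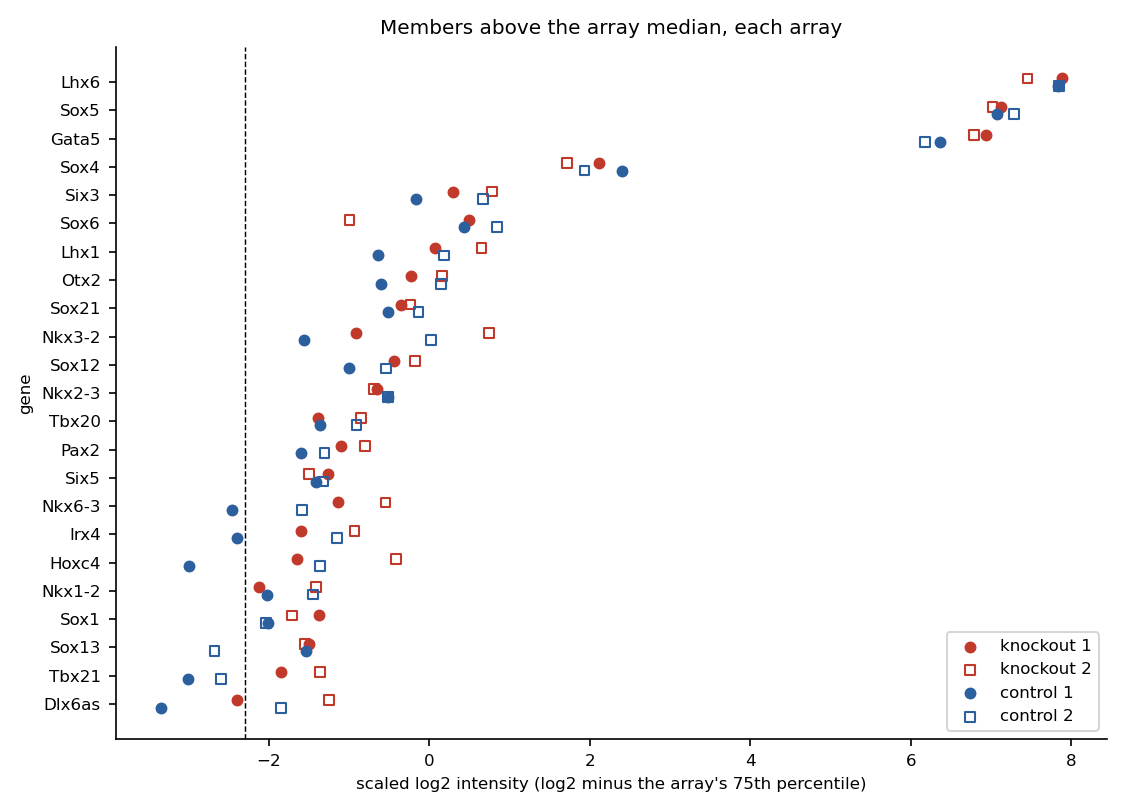
Scaled log2 intensity (x axis) of the 23 members above the array median (rows), with filled symbols for replicate 1 and open squares for replicate 2, red for knockout and blue for control. The dashed line is the mean of the array medians. Gata5, Sox12, Pax2, Nkx6-3, Sox1 and Tbx21 have both red symbols to the right of both blue ones, Nkx2-3 has both to the left, and for the other 16 genes the groups overlap.

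Nkx6-3 and Pax2 stand for the members whose groups did not overlap but whose differences were within the error. Nkx6-3, a regulator of stomach endocrine cells, read 499 and 1158 in knockout cells, against 291 and 511 in control cells. Its log2 difference was 1.18 (-0.11 to 2.47, adjusted p = 0.780), or 0.74 without control replicate 1, and its second probe was detected on no array. Pax2 read 509 and 970 in knockout cells, against 527 and 619 in control cells, a log2 difference of 0.50 (-0.33 to 1.32, adjusted p = 0.780). The 2 other Pax2 probes gave -0.08 and 0.72, so the direction depended on the probe.

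The split at the array median ran through a continuous range of signals. Just above it were Sox13, Tbx21 and Dlx6as, with means of -1.82, -2.20 and -2.21 on the scaled log2 axis. Just below were Neurog1, Pax9 and Tbx10, with means of -2.48, -2.56 and -3.02. Neurog1, a neurogenic factor, read 183 and 246 in knockout cells, against 275 and 380 in control cells, and both scaled knockout arrays were below both controls, by 0.41 on the log2 scale and by 0.14 without control replicate 2. Pax9 and Tbx10 overlapped between groups.

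Below the median, the difference between arrays of 1 group exceeded that between groups. Among these 95 members the median scaled log2 intensity was -6.37 and -4.75 in the knockout samples, against -7.62 and -5.27 in the controls. Knockout array 2 was above knockout array 1 for 72 of the 95 genes, by a median of 0.91, and control array 2 was above control array 1 for 88, by a median of 0.86. The 10967 genes below the median showed nearly the same medians, 0.94 and 0.88. The labels give 16 to 19 cycles of amplification and do not tie them to samples, and the part of amplification in these array differences was not tested.

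**Figure D4:**
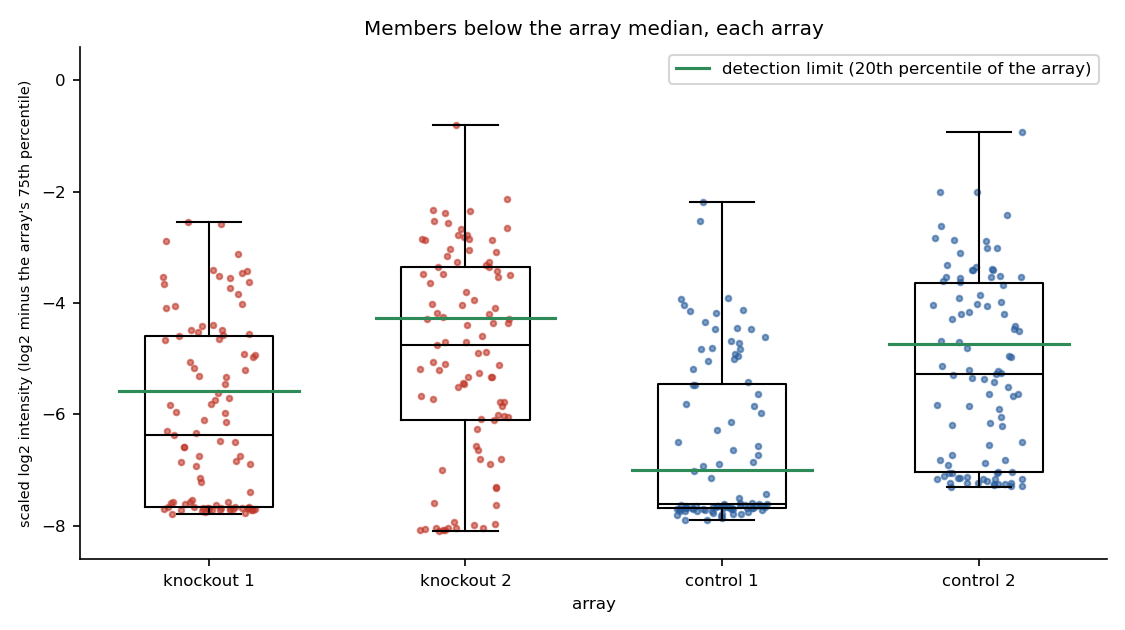
Scaled log2 intensity (y axis) of the 95 members below the array median on each of the 4 arrays (x axis). Points are genes, boxes span the quartiles with the median as a line, whiskers reach the last point within 1.5 times the box, and green lines are the detection limits. The medians of -6.37 and -7.62 on knockout 1 and control 1 lie below those of -4.75 and -5.27 on knockout 2 and control 2.

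The mean was higher on the knockout arrays for 69 of the 95 genes and lower for 26, with a median log2 difference of 0.45. That share was 72.6%, near the 71% of all genes below the median, whose median difference was 0.49. The direction turned under 2 of the other scalings, with 42 higher and 53 lower after quantile normalization and 43 and 52 with cyclic loess. It stayed with median centring (58 and 37) and with an offset of 50 (84 and 11). It also turned with single arrays, with a median of -0.22 when Ezh1 knockout replicate 2 was left out and -0.16 when control replicate 1 was. Both knockout arrays were above both controls for 11 genes (11.6%, against 16.8% of genes below the median) and below for 9 (9.47%, against 9.91%). Of the 11 higher genes 5 (Nkx2-6, Pax7, Nkx6-2, Tbx1 and Irx3) and of the 9 lower genes 6 (Dlx6os1, Sox8, Nkx2-9, Hoxd12, Sox2 and Dlx2) were not detected on both arrays of either group.

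**Figure D5:**
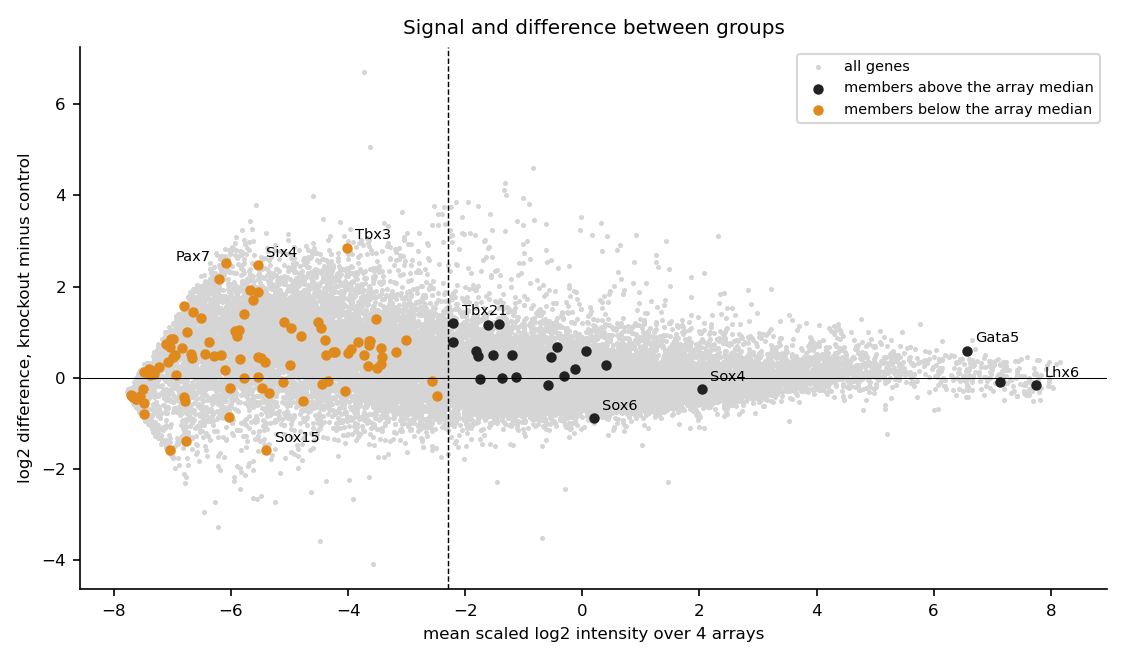
Each point is 1 gene, with the mean scaled log2 intensity over the 4 arrays on the x axis and the log2 difference of knockout minus control on the y axis. Grey points are all 24287 genes, black points the 23 members above the dashed array median and orange points the 95 below it. The members lie within the cloud of all genes on each side, and the largest differences (Tbx3, Pax7 and Six4) are at low signal.

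For a few dim genes the scaled groups did not overlap, with no adjusted p under the threshold. Six4, a homeobox factor of muscle precursors, read 46.5 and 103 in knockout cells, against 7.99 and 25.5 in control cells (not detected). With the control signals raised to the detection limits of their arrays, it was 2.97-fold higher (limma adjusted p = 0.780 on the measured signals). Neurog2, a neurogenic factor, read 30.4 and 88.4 in knockout cells, against 7.24 and 33.6 in control cells (again not detected). With control signals raised in the same way, it was 2.23-fold higher (limma adjusted p = 0.780 on the measured signals). With an offset of 50 the log2 differences were 1.07 and 0.80. Both genes entered the test through the knockout arrays alone, where they were brighter. Sox15 went the other way, with 19.4 and 17.9 in knockout cells, where it was not detected, against 53.1 and 78.2 in control cells. It entered the test through the control arrays alone, with a log2 difference of -1.59 (-2.81 to -0.37, adjusted p = 0.780). With the knockout signals raised to the detection limits of their arrays, it was 1.26-fold lower. Both scaled control values, -4.91 and -4.29, lay below the limit of knockout array 2, which was -4.27.

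Hand1, which acts in heart and placenta, read 103 and 333 in knockout cells, against 56.2 and 134 in control cells. Nkx2-4 read 95.2 and 204 in knockout cells, against 90.5 and 106 in control cells, and the palate factor Tbx22 read 82.7 and 189 against 72.0 and 97.0. Neurog3, which directs pancreatic endocrine cells, read 34.8 and 49.7 in knockout cells, against 55.9 and 83.8 in control cells. The log2 differences were 1.29 for Hand1, 0.71 for Nkx2-4, 0.78 for Tbx22 and -0.52 for Neurog3. They were 0.64 for Hand1 without control replicate 1 and -0.20 for Neurog3 without control replicate 2. For each of these 4 genes the groups did not overlap, the 95% interval included 0 and the adjusted p was 0.780. Neurog3 was detected on 1 knockout array and entered the test through the control arrays alone, where it was brighter. The second probes of Hand1, Tbx22 and Neurog3 were not detected on any array. The largest difference of any member belonged to Tbx3, chosen after its values were seen. It read 52.2 and 965 in knockout cells, against 8.77 and 146 in control cells, so the groups overlapped and the log2 difference of 2.85 had a 95% interval of -2.83 to 8.53. Tbx3 was detected on 1 control array and entered the test through the knockout arrays alone.

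Among the GATA factors outside the blood, Gata4 was not detected on any array, with 5.66 and 44.1 in knockout cells, against 7.81 and 20.7 in control cells. Gata6 was detected on knockout array 2 alone, where it read 158, against 10.2 on knockout array 1 and 8.26 and 37.6 on the controls. Neither was tested, since neither was detected on both arrays of a group. That was so for 63 of the 95 dim members, and the 55 members that could be tested are not a sample of the whole, because a gene can enter through the group in which it is brighter.

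In the authors' deposited table, 4 of the 118 genes have a p-value under 0.05 without adjustment, against 5.48% of all genes. They are Gata5 (ratio 1.51, up), Sox7 (1.75, up), Nkx2-3 (1.11, down) and Pax7 (5.69, up) in the authors' deposited table. Pax7, the factor of muscle stem cells, is the only member there with a ratio of at least 2 as well (over all genes that share was 1.6%). It read 36.5 and 62.6 in knockout cells, against 8.13 and 11.5 in control cells. It was detected on 1 of the 4 arrays, so that ratio is taken against undetected control signals.

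Nearly all listed polycomb genes were above the array median, and none passed the threshold. All 11 listed subunits and partners of polycomb repressive complex 2 and 16 of 17 of complex 1 were above it. Means were lower on the knockout arrays for 7 of the 11 and for 12 of the 17, with median log2 differences of -0.10 and -0.20. Over all 13320 genes above the median 7598 were lower, with a median of -0.07. Ezh2, the other methyltransferase, differed by -0.49 (-1.59 to 0.60), and its core partners Eed and Suz12 by -0.37 (-1.24 to 0.51) and -0.10 (-0.97 to 0.77). The lowest adjusted p among these genes was 0.780, and the recruiting partner Jarid2 differed by -0.60 (-1.67 to 0.46). Cbx8, a reader subunit of complex 1 and the dim exception, was 2.34 higher (0.81 to 3.87, adjusted p = 0.780) and was detected on 1 control array. Cbx8 thus entered the test through the knockout arrays alone, where it was brighter, and its difference includes an undetected control signal. For the 3 listed H3K27 demethylase genes, 2 of them above the median, both knockout samples were below both controls. That was so for 18.8% of all genes and 26.1% of genes above the median. Kdm6a differed by -0.69 (-1.76 to 0.38, adjusted p = 0.780).

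The array also measured 77 listed developmental regulators of other families. Of these 11 were above the array median, 29 were detected on no array, and 57 had a higher mean on the knockout arrays, with a median of 0.54. Over all genes below the median, as most of the list was, 71% had a higher mean. The groups did not overlap for 19 that were higher (over all genes below the median 16.8%) and 9 that were lower (9.91%). The homeobox gene Msx3 read 556 and 673 in knockout cells, against 208 and 224 in control cells, 3.25-fold higher (adjusted p = 0.780). The signalling ligand Wnt5a was 3.33-fold higher (adjusted p = 0.780). In the list of homeobox and GATA genes used in blood, 22 of 33 were above the median, 12 had a higher and 21 a lower mean, and the median was -0.15. The groups did not overlap for 4 of these that were higher and 7 that were lower (over all genes above the median 16.3% and 26.1%). The homeobox factor Hlx, which acts in blood progenitors, was 1.96-fold higher on the knockout arrays (95% interval of the log2 difference 0.25 to 1.68, adjusted p = 0.780). Msx3, Wnt5a and Hlx were named for a small p within their lists.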

How the data were processed

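The authors deposited linear probe intensity for 4 arrays (Cy3), and the submitters' processing notes name Agilent Feature Extraction, with no version in the sources used here. RNA of 0.1 to 5 ng was amplified before labelling, per the labels' protocols, which adds chance variation to weakly expressed genes. The authors' deposited table holds an absolute fold ratio and an unadjusted p-value per probe, per the file headers. Their log2 ratios differed by at most 0.0025 from the differences computed here. The deposited value table of the series was not used: 39307 of its rows are empty, and the others correlate with the intensities of the same probe at r of 0.069 to 0.091.

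Intensities under 1 were set to 1, converted to log2 and lowered by each array's 75th percentile. Probes above the 20th percentile on both arrays of a group (43759) were tested with limma 3.58.1 in R 4.3.3, two-sided and without a block, with Benjamini-Hochberg adjustment over all of them and 0.05 as the threshold. Residual degrees of freedom were 2 and prior ones 1.78, and the fit was tested on simulated data. A single exact permutation test of 2 against 2 arrays cannot go below 0.333. Folds with raised signals take, on each array of the undetected group, the higher of the detection limit and the measured signal. They are no lower bound on a difference, since the limits differ between arrays. The number of arrays limits the precision.

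A gene counted as above when its mean over the arrays exceeded the mean of the array medians. Named members are those above, up to 10 dim tested members per direction whose groups do not overlap, the 3 on each side of the split, the GATA factors and those of the authors' table with a ratio of at least 2. From other lists up to 4 genes with the smallest p were taken, so their intervals reflect that choice. Members and lists were chosen with earlier results of these data known. Promoter windows of RefSeq were found for 77 of 118 members (65.3%), too few for a comparison over the list, which is void. Alternatives were other scalings, filters, probe choices, an offset, the replicate number as a block and each array left out.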

Additional observations from a re-analysis of the deposited data

How the results depend on the processing

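In limma 0 probes and 0 named members passed the threshold in the analysis as reported or under any of 12 alternatives (quantile normalization, median centring, cyclic loess, an offset of 50, each array left out, no filter, a filter at the array median, a variance trend and the replicate block). The samples share only a replicate number, and leaving 1 array out makes that number uneven between the groups. With the replicate block 9158 probes had an unadjusted p under 0.05, against 2513 without it, the lowest adjusted p was 0.206, and 0 passed. Deviations of arrays with the same number correlated at 0.69 across the tested probes, with 2 pairs. The count at an unadjusted p under 0.05 was also 1278 with median centring and 888 to 3892 with an array left out. The median log2 difference of tested probes was 0.09, and -0.08 after quantile normalization, -0.13 with median centring and -0.01 with cyclic loess. The median of members above the array median ranged from -0.0623 to 0.51 with an array left out, and that of members below from -0.22 to 1.15. Counts of members whose groups do not overlap were 27 with 4 arrays and 52 to 94 with an array left out, where 3 arrays overlap less by construction. Differences near 0 turned sign: Otx2 (-0.0212), Sox21 (-0.19) and Tbx20 (-0.20) with median centring and Tbx20 (-0.0466) after quantile normalization. With an array left out, the log2 differences of the genes that turned sign ranged from -0.39 to 0.0424 for Lhx6, -0.21 to 0.0050 for Sox5, -0.13 to 0.70 for Six3, -0.18 to 0.57 for Otx2, -0.16 to 0.22 for Sox21, -0.15 to 1.51 for Nkx3-2, -0.25 to 0.29 for Tbx20, -0.14 to 0.10 for Six5, -0.12 to 1.13 for Irx4, -0.39 to 0.32 for Nkx1-2, -0.41 to 0.27 for Pax9 and -0.19 to 1.86 for Tbx10. The series value table was not run as an alternative, since its rows could not be matched to probes. Dim genes limit these data: 63 of 118 members were not detected on both arrays of either group.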
